A study of Mus musculus with 9 samples.

Results

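Gm2042 and its relatives Oog1, Oog2, Oog3, Oog4, C87977, Gm10436, Gm13023 and Pramef17 are 9 mouse genes of the PRAME-like family, and they were taken here by gene name from the 30153 genes of the joined count tables. The set was drawn up with earlier results of these data in view: Gm2042 was selected on its lower counts in the GFP groups, Pramef17 on its few counts in GFP High, and the rest by family. The libraries came from metaphase II oocytes, the ovulated eggs arrested in the second meiotic division, pooled from 4-week-old Sycp3CreERT2/+; Rosa26nT-nG/+ females of mixed genetic background. All groups share this genotype, in which a Cre recombinase fused to an oestrogen receptor domain is expressed from the Sycp3 locus and switches a nuclear tdTomato reporter to nuclear GFP. Females received 5 IU PMSG, 5 IU hCG 48 h later, and gave oocytes 13 h after that, which were stripped of cumulus cells with hyaluronidase and sorted by eye into GFP High, GFP Low and RFP. There were 3 libraries in each group, from pools of 15, 15 and 16 oocytes for GFP High, 49, 52 and 57 for GFP Low, and 88, 87 and 100 for RFP. Nothing states that the replicates came from separate animals, so p-values measure only the spread between these libraries. The pools hold different numbers of oocytes, and pool size and group cannot be told apart.

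PRAME proteins are built of leucine-rich repeats, and human PRAME serves as a substrate receptor of a cullin-based ubiquitin ligase. In the mouse the family has expanded into clusters of recent copies, many of which are active in germ cells. Oogenesins are the branch known from oocytes; Oog1 was described as an oocyte transcript that persists into the first cleavage stages. Copies this recent differ at few bases, so short reads from one can match another.

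Gm2042 lies on mouse chromosome 12 (build mm10, chr12:87954080-87960683, plus strand), between Oog1 (chr12:87602688-87608850, plus strand) and Gm10436 (chr12:88175589-88182108, minus strand). The other 6 genes lie on chromosome 4. On the plus strand are Oog2 (chr4:144190719-144196934) and Gm13023 (chr4:143789352-143795575). On the minus strand are Oog3 (chr4:144157557-144162663), Oog4 (chr4:143437164-143450324), C87977 (chr4:144206775-144213318) and Pramef17 (chr4:143991119-143994369). All 9 are annotated as protein coding, and none overlaps another annotated gene.

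The transcript of Gm2042 with the longest coding part, Gm2042-201, has 4 exons and 1894 bases, of which bases 126 to 1613 are coding. It differed from the 1801-base transcript Oog1-201 at 3 of 1801 aligned bases, an identity of 99.8%. Counted from 1 at the 5′ end of Gm2042-201, with the Gm2042 base first, these were A1422C in the coding part and A1843C and A1875C in the 3′ UTR, all in exon 4. The windows around them are shown because they are the bases at which the aligned parts of these 2 transcripts differ; the capital marks the differing base, and Gm10436 is given at the same place. The window around A1422C is chr12:87960196-87960225 in Gm2042.
Gm2042: tgttaccctgcccctAtagagtgctatgat
Oog1: tgttaccctgcccctCtagagtgctatgat
Gm10436: tgttaccctgcccctAtagagtgctatgat
Here the Gm10436 transcript carries the base of Gm2042. The window around A1843C is chr12:87960617-87960646.
Gm2042: caccattttatgagaAtggcccaatctgtt
Oog1: caccattttatgagaCtggcccaatctgtt
Gm10436: caccattttatgagaCtggcccaatctgtt
Here Gm10436 carries the base of Oog1, so of the 3 differences this is the one that sets Gm2042 apart from both. The window around A1875C is chr12:87960649-87960672.
Gm2042: ctgcatacaataaatAtgttgact
Oog1: ctgcatacaataaatCtgttgact
Gm10436: ctgcatacaataaatAtgttgact
At this last place Gm10436 again carries the base of Gm2042.

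Over the whole transcript, Gm10436-201 differed from Gm2042-201 at 15 of 1883 aligned bases, an identity of 99.2%. Gm13023 and C87977, on the other chromosome, were 95.9% and 95.4% identical to it. Oog2, Oog3 and Oog4 were 79.2%, 81.1% and 79.9% identical over the aligned bases, and Pramef17 68.1%. Every stretch of 100 bases of each main transcript was looked up in the transcripts of all other genes. For Gm2042-201, 101 of 1795 such stretches, 5.63%, occurred in no other gene, and for Oog1-201 8.28%. The share was 61.4% for Gm10436, 83.9% for Gm13023, 85.0% for C87977, 77.6% for Oog2, 89.2% for Oog3 and 100% for Oog4. Pramef17 had 43.7%, and its closest copy was Gm13128, at 99.3% identity. Oog2 has a close copy in Gm13084, at 98.2%. Oog3 shared 10.8% of its 100-base stretches with Gm4350, a gene outside the list searched for near-identical copies. With stretches of 150 bases the shares of Gm2042 and Oog1 were 11.5% and 11.6%. Gm2042 has 10 annotated transcripts, and over all of them together 32.8% of the 100-base stretches occurred in no other gene.

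**Figure D1:**
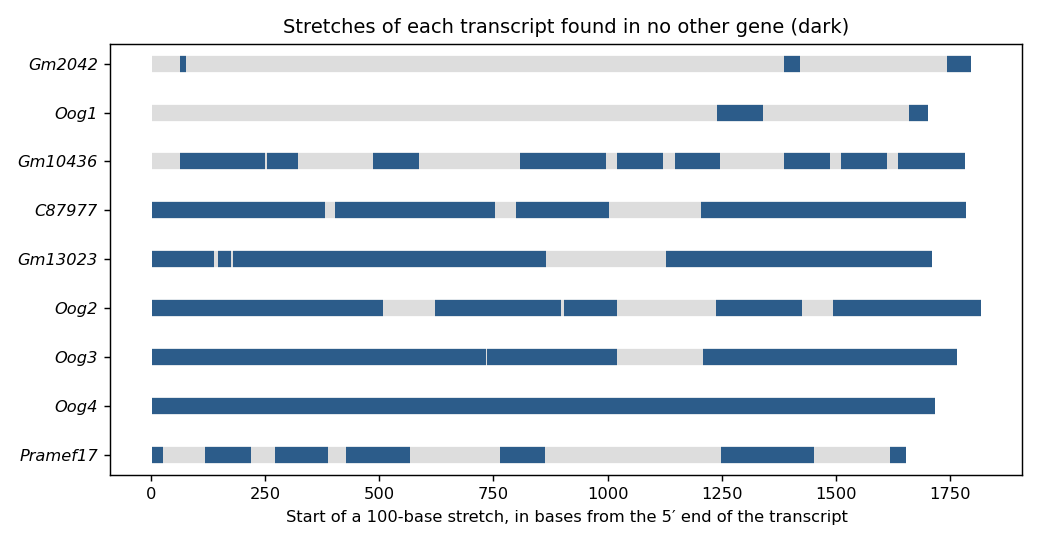
Horizontal bars are the main transcripts of the 9 genes, and the x axis gives the first base of each 100-base stretch, in bases from the 5′ end. Dark parts are stretches found in no other annotated gene: they cover 5.63% of Gm2042 and 8.28% of Oog1, and all of Oog4.

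RefSeq promoters, 250 bases before to 50 bases after the annotated start on build GRCm38.p6, were matched for 8 of the 9 genes. The promoters of Gm2042 and Oog1 differed at 1 of 300 bases, A46G, counted from 1 at the 5′ end of the Gm2042 window. Of 3 short words, each recurred in most of the promoters, though not always at the same place. The promoters of Gm2042 (chr12:87954230-87954529, plus strand), Oog3 (chr4:144162602-144162901, minus strand) and Pramef17 (chr4:143994320-143994619, minus strand) are printed, with the words in capitals.
Gm2042: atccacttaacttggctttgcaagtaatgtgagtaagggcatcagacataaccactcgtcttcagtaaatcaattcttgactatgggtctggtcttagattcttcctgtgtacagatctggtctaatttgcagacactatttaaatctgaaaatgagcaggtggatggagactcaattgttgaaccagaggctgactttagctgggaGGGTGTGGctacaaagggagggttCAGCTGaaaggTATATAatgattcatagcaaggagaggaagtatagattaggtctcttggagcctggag
Oog3: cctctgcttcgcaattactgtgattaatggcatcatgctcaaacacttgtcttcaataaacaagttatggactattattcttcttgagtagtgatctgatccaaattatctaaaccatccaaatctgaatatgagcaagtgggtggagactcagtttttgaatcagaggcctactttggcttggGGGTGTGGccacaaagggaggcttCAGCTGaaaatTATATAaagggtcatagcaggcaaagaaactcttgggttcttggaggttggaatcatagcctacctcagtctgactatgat
Pramef17: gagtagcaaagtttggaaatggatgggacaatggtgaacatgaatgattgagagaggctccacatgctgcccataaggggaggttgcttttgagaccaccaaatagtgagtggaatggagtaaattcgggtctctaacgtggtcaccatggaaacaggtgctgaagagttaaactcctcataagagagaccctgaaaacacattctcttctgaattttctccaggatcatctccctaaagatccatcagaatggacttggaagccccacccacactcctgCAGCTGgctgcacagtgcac
The words, chosen after the sequences were seen, were CAGCTG (a palindrome of the E-box kind), TATATA and GGGTGTGG, each searched on both strands. Each was present in 7 of the 8 promoters, against 16.3% of all 32851 RefSeq promoters for CAGCTG, 5.67% for TATATA and 3.56% for GGGTGTGG. All 3 together were found in 6 of the 8 and in 0.061% of all promoters. The words were taken from these same promoters, many of which resemble each other, so the shares are a description and test nothing. The promoters of Gm13023 and C87977 were 95.4% and 93.2% identical to that of Gm2042 over the aligned bases. The Gm13023 window holds no CAGCTG, and the Pramef17 window holds neither of the other words. CAGCTG lay between GGGTGTGG and TATATA in Gm2042, Oog1, Oog2, Oog3 and Oog4 only. In C87977 it began at -83 from the annotated start, ahead of GGGTGTGG at -64, and in Pramef17 at 30. A match is a description of the letters and says nothing on binding. Any part of the promoters in the levels described next was not tested.

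Depth was between 19381677 and 27746256 counts per library. As a check of the labels, eGFP counts were 0 to 16 in RFP, 282 to 662 in GFP Low and 869 to 1081 in GFP High, and tdTomato counts 46 to 94, 16 to 35 and 0 to 2. All 10 oocyte markers on the list were at 20 CPM or more in every library, CPM being counts scaled to an equal library size with TMM factors. The 12 cumulus and granulosa markers had summed levels of 16.4 to 59.6 CPM in RFP, 13.1 to 42.3 in GFP Low and 8.94 to 47.5 in GFP High, so the groups overlapped, with none at 20 CPM in all libraries of a group. Amh was at 0 in GFP High and RFP, and Foxl2 in GFP High. Of the 3 blood markers 1 was in the tables, at no more than 0.449 CPM.

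Gm2042 was lower in both GFP groups than in RFP. In RFP the 3 libraries held 222.9, 266 and 228 CPM. The GFP High libraries held 97.8, 109 and 89.8 CPM, and those of GFP Low 99.99, 102 and 96.6 CPM. Every GFP library lay below every RFP library, and the GFP groups overlapped each other. Mean levels were 239 ± 23.8 CPM for RFP, 98.9 ± 9.64 for GFP High and 99.7 ± 2.90 for GFP Low (SD, n = 3). The fitted log2 fold change was -1.27 (SE 0.12) for GFP High and -1.26 (SE 0.09) for GFP Low, each against RFP, which is 0.415 times the RFP level in GFP High. These differences were used to choose the gene and are given as a description.

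Between the GFP groups the fitted log2 fold change of Gm2042 was -0.01, with a 95% interval of -0.26 to 0.24. The gene was chosen on its difference from RFP in both GFP groups, and this value is the difference of those contrasts, so it too is a description and no independent test. The reporter counts of GFP Low lay between those of the other groups for eGFP and for tdTomato, and the Gm2042 values of the GFP groups overlapped.

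**Figure D2:**
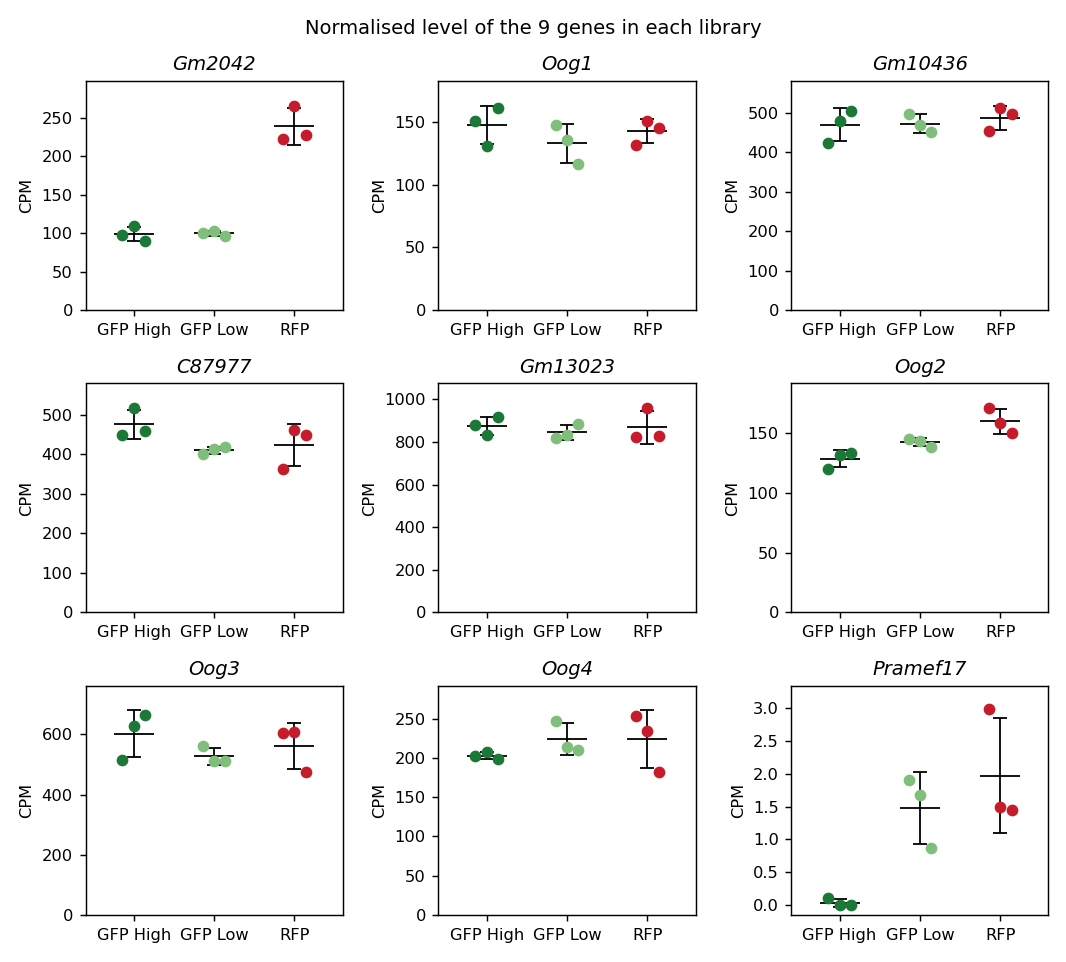
Each panel plots the level of 1 gene in CPM (y axis, linear) for the 3 groups (x axis). Points are libraries, and black bars the mean and SD of 3. Gm2042 lies at 89.8 to 109 CPM in the GFP groups and at 222.9 to 266 in RFP, while the groups of Oog1 and Gm10436 overlap.

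Oog1, whose transcript is the closest to that of Gm2042, did not show this pattern. The RFP libraries held 132, 151 and 145 CPM, those of GFP High 151, 131 and 161, and those of GFP Low 147, 136 and 117. The groups overlapped throughout. The log2 fold change against RFP was 0.06 in GFP High (95% interval -0.20 to 0.31) and -0.10 in GFP Low (-0.32 to 0.12), with adjusted p of 0.997 and 0.9999 (edgeR). Those intervals do not reach the size of the Gm2042 difference.

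Gm10436, the third gene of the chromosome 12 group, held 454, 513 and 497 CPM in the RFP libraries, 424, 480 and 505 in those of GFP High and 498, 469 and 452 in those of GFP Low. Its groups overlapped too, with log2 fold changes of -0.05 and -0.04 against RFP. Within single libraries, where scaling between libraries has no part, the ratio of Gm2042 to Oog1 counts was 0.647, 0.832 and 0.556 in GFP High. The GFP Low libraries had ratios of 0.678, 0.753 and 0.828, and the RFP libraries 1.69, 1.77 and 1.57. Oog1 counts thus exceeded Gm2042 counts in every GFP library and were fewer in every RFP library. The ratio of Oog1 to Gm10436 stayed between 0.258 and 0.357 over all 9 libraries.

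Of the counts of these 3 genes, Gm2042 made up 27.6%, 28.6% and 26.2% in the RFP libraries. Its share was 14.5%, 15.1% and 11.9% in those of GFP High and 13.4%, 14.5% and 14.5% in those of GFP Low. The Wilson 95% interval, for counting error only, was 27.0% to 28.2% in RFP replicate 1 and 14.6% to 15.7% in GFP High replicate 2. The 3 genes together held 809 to 930 CPM in RFP, above the 673 to 757 of GFP High and the 665 to 745 of GFP Low. Oog1 and Gm10436 without Gm2042 held 631 ± 40.3 CPM for RFP, 618 ± 46.4 for GFP High and 606 ± 38.4 for GFP Low (SD, n = 3). The sum of all 3 genes separated RFP from both GFP groups, and the sum without Gm2042 did not. Without Gm2042 the ranges were 586 to 663 CPM in RFP, 575 to 667 in GFP High and 569 to 645 in GFP Low. Gm2042 was chosen on its lower counts in the GFP groups, so the ratios, shares and sums are a description.

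**Figure D3:**
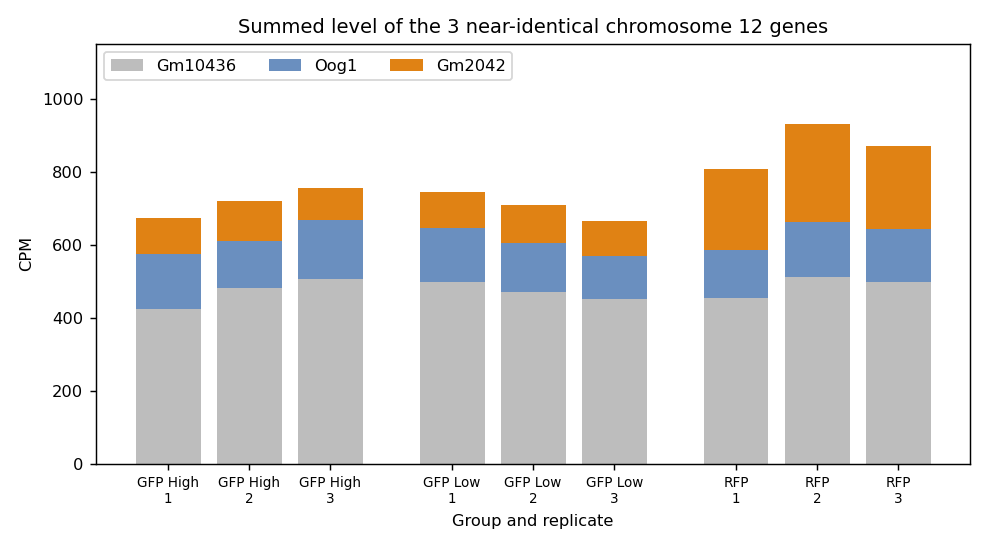
Bars stack the levels of Gm10436, Oog1 and Gm2042 in CPM (y axis, from 0) for each of the 9 libraries (x axis). The Gm2042 segment is 11.9% to 15.1% of the bar in the GFP libraries and 26.2% to 28.6% in the RFP libraries.

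The counts of the 3 genes were also summed into a single gene before the fit. The log2 fold change against RFP was then -0.27 (SE 0.08) in GFP High (edgeR adjusted p = 0.997). In GFP Low it was -0.30 (SE 0.08, edgeR adjusted p = 0.9998), with the adjustment made over all genes tested. With C87977 and Gm13023 added, a setting chosen after the data were seen, the values were -0.06 (SE 0.08) and -0.14 (SE 0.07). How the authors' counting treated reads that match several copies is not given in the sources used here. Nor do these sources give which copies the mixed background of these mice carries, and the part of either in the Gm2042 values was not tested.

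C87977 held 364, 462 and 448 CPM in the RFP libraries, 450, 517 and 460 in those of GFP High and 401, 412 and 418 in those of GFP Low. All GFP High libraries lay above all GFP Low libraries, while both overlapped RFP. Their difference was 0.21 on the log2 scale (SE 0.08), which did not pass the threshold over all genes (edgeR adjusted p = 0.998). Gm13023, the most abundant member, held 822, 959.5 and 828 CPM in the RFP libraries, 879, 833 and 917 in those of GFP High and 818, 833 and 885 in those of GFP Low, so all groups overlapped. Its log2 fold changes were 0.02, -0.04 and 0.05 in the comparisons of GFP High with RFP, GFP Low with RFP and GFP High with GFP Low.

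Oog2 held 171, 158 and 150.1 CPM in the RFP libraries, 145, 143 and 138 in those of GFP Low and 120, 131 and 133 in those of GFP High. The 3 groups did not overlap, with GFP High lowest, GFP Low between and RFP highest. The steps were small: log2 fold changes of -0.31 (SE 0.11) for GFP High and -0.17 (SE 0.08) for GFP Low against RFP, and -0.15 (SE 0.10) between the GFP groups. None passed the threshold, with edgeR adjusted p of 0.997, 0.9999 and 0.998. Gm13084, the copy 98.2% identical to Oog2, had log2 fold changes of -0.05 in both comparisons with RFP. With the counts of Oog2 and Gm13084 summed, the log2 fold changes were -0.09 for GFP High and -0.07 for GFP Low against RFP, and -0.02 between the GFP groups.

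Oog3 held 604, 609 and 474 CPM in the RFP libraries, 515, 628 and 663 in those of GFP High and 560.3, 511 and 510.1 in those of GFP Low, and its groups overlapped. Oog4, the one member with no 100-base stretch in common with another gene, held 254, 234 and 182 CPM in the RFP libraries, 203, 208 and 198 in those of GFP High and 247, 213 and 210.3 in those of GFP Low. GFP High lay below GFP Low by a fitted -0.14 on the log2 scale (SE 0.09), which did not pass the threshold (edgeR adjusted p = 0.998), and both overlapped RFP.

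Pramef17 was at or under the limit of detection, taken as 3 counts in a library, in each GFP High library and above it in all others. GFP High had 3, 0 and 0 counts, GFP Low 37, 44 and 24, and RFP 79, 34 and 39. All GFP High libraries lay below all others, and GFP Low overlapped RFP. Summed over libraries, the 3 counts of GFP High against the 152 of RFP gave a ratio of 0.0203 per scaled library size, with an exact 95% interval of 0.00413 to 0.0604 for counting error only. Against the 105 counts of GFP Low the ratio was 0.0282 (0.00573 to 0.0848). Pramef17 was chosen with these values known and passed the filter on low counts through GFP Low and RFP alone, so the ratios are a description. Of 3089 genes with an RFP mean of 1 to 4 CPM, 95 (3.08%) had 2 or more GFP High libraries at 0. In GFP Low 8 (0.259%) had 2 or more libraries at 0. Genes with 3 counts or fewer over a group's libraries numbered 14 (0.453%) in GFP High, Pramef17 among them, and 0 in GFP Low. The cause was not tested. GFP Low differed from RFP by a fitted -0.42 on the log2 scale (SE 0.48). None of the 3 comparisons passed the edgeR threshold for it. The authors' deposited table gives it adjusted p-values of 0.0325 for GFP High with RFP, 0.190 for GFP High with GFP Low, and 1.00 for GFP Low with RFP. Its copy Gm13128 had 0 counts in each GFP High library, 1 in each GFP Low library and 3, 0 and 9 in RFP.

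Of the 9 genes, 1 was called in GFP High against RFP and in GFP Low against RFP, in both cases Gm2042, and 0 in GFP High against GFP Low. Over all genes tested the shares called were 0.0135%, 0.0197% and 0%, from 2 of 14829, 3 of 15199 and 0 of 14785 genes. Since the choice of Gm2042 used both RFP contrasts, nothing is read from these counts. The call for GFP High against RFP was lost on leaving out GFP High replicate 1 or 3, or RFP replicate 2 or 3, with log2 fold changes of -1.31 to -1.19 in those fits. In the comparison without a call, 558 of the 14785 genes tested had an unadjusted edgeR p under 0.05. DESeq2 called 3 genes there, none of them among the 9. Members whose replicates did not overlap numbered 3 of 9 for GFP High against RFP, all lower, beside 11.8% of all genes (6.8% lower and 5.04% higher). They numbered 2 of 9 for GFP Low against RFP, both lower, beside 7.68% (4.07% lower and 3.62% higher). Between the GFP groups they numbered 4 of 9, with 3 lower and 1 higher in GFP High, beside 11.5% (6.7% lower and 4.79% higher). Gm2042 is counted in both comparisons with RFP, and Pramef17 in both comparisons of GFP High. Both genes were chosen on such values, so nothing is read from these counts of members either. Over all 9 members the median log2 fold changes were -0.05, -0.09 and -0.01 in the same order of comparisons, beside -0.01, -0.004 and -0.005 over all genes tested. All 9 passed the filter on low counts, but Pramef17 did so through the groups in which it was higher. Among genes at 20 CPM or more, Gm2042 had the lowest fitted log2 fold change of 6078 genes in GFP High against RFP and of 6083 in GFP Low against RFP. Gm2042 was chosen on these contrasts, so its rank is a description and no support.

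**Figure D4:**
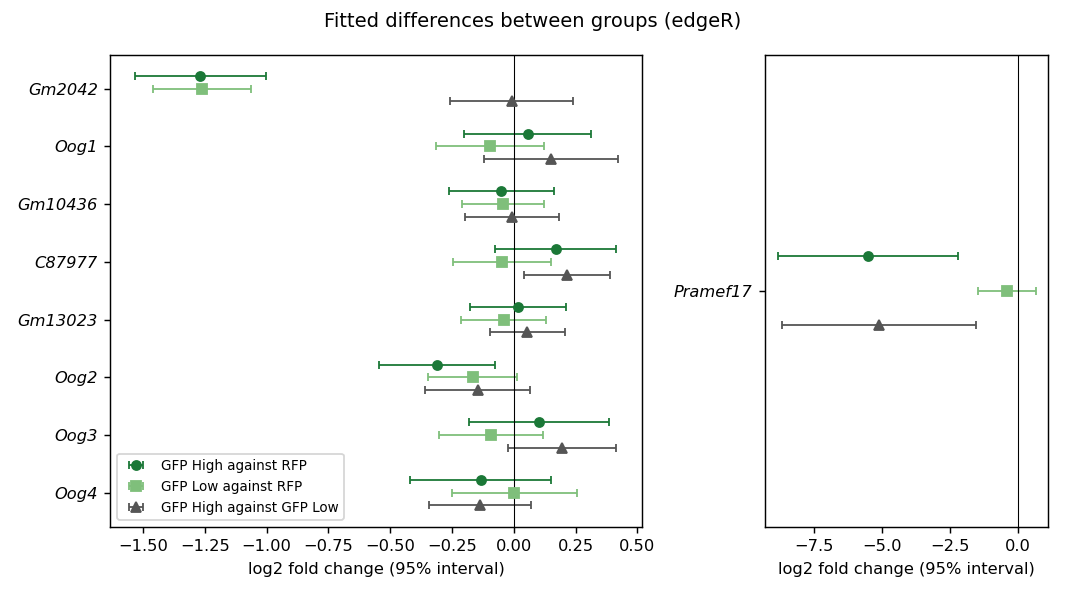
The x axes give fitted log2 fold changes with 95% intervals from edgeR, and each row is 1 gene; marker shapes are the 3 comparisons, and Pramef17 has its own scale. Gm2042 lies at -1.27 and -1.26 against RFP and at -0.01 between the GFP groups, and the next 7 genes lie between -0.31 and 0.21.

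Compared per length, in the authors' FPKM, the order of the genes was led by Gm13023 in each group, at 473 ± 44.0 for RFP, 483 ± 21.4 for GFP High and 461 ± 18.9 for GFP Low (SD, n = 3). Oog3 came second, at 297 ± 42.1, 322 ± 41.3 and 279 ± 15.5. C87977 and Gm10436 followed at 136 to 162 FPKM; their ranges overlapped in GFP High and RFP and not in GFP Low, where Gm10436 was higher. Oog4 was next at 102 to 112 FPKM, and its range overlapped that of C87977 in RFP and in no other group. The lower end of the order differed between groups. In GFP High it ran Oog1 (60.1 ± 6.08), Oog2 (51.5 ± 2.89), Gm2042 (32.1 ± 3.25), with no overlap between neighbours. In GFP Low, Oog2 (56.6 ± 1.43) and Oog1 (53.8 ± 6.32) overlapped and Gm2042 was below them at 32.1 ± 0.95. In RFP, Gm2042 stood above both, at 76.6 ± 7.87 FPKM, against 63.3 ± 4.40 for Oog2 and 57.4 ± 3.81 for Oog1. Pramef17 was last in all groups, at 0.0207, 0.837 and 1.11 FPKM. Over all 9 libraries, Gm13023 ranked 62 and Oog3 ranked 105 of the 30153 genes by mean FPKM, and Gm2042 ranked 1219. The 9 genes took 0.281% to 0.337% of the counts of a library. How reads matching several copies were counted is not given, so the place of Gm2042 and Oog1, with few stretches of their own, is uncertain. Deposited gene lengths also differ with the annotation: 3073 bases for Gm2042, with 10 transcripts, and 1810 for Gm13023, with 4.

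Of the other PRAME family genes on the list, 29 were in the tables. Of these, 9 had a mean of 10 CPM or more and 20 were under 1 CPM, among them Prame itself, Pramel1, Pramel3 and Pramel7. The highest mean FPKM was that of Gm13084, at 305, followed by Pramef12 at 153, C87499 at 78.9, Pramef20 at 59.6, C87414 at 52.6 and AA792892 at 21.9. In GFP High against RFP, 13 of the 29 were tested, and 0 were called higher and 0 lower; their log2 fold changes had a median of -0.03. In GFP Low against RFP it was 0 of 13, with a median of -0.01, and in GFP High against GFP Low 0 of 14, with a median of 0.01. The number with an unadjusted edgeR p under 0.05 was 0, 0 and 1. Over all genes tested it was 606 of 14829, 398 of 15199 and 558 of 14785. With 13 or 14 genes tested, nothing is read from these counts or from the lack of calls. For GFP High against RFP, the 6 named genes had log2 fold changes between -0.05 for Gm13084 and 0.24 for C87499. The lowest of the 13 was that of Gm13119 at -1.5 (SE 1.44), a gene with a mean of 0.829 CPM picked out after its value was seen.

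Around Gm2042 few genes held 1 CPM or more. How reads matching several copies were counted is not given, so a low count here need not mean that a gene was silent. Within 500 kb of its start lay 31 other genes of the tables, and 5 had a mean of at least 1 CPM: Oog1, Gm10436, the pseudogene Gm7104 (10.4 CPM), Adck1, which encodes a kinase-like mitochondrial protein (5.59 CPM), and Gm5039 (1.33 CPM). Adck1 had log2 fold changes of -0.24 (SE 0.43) and -0.14 (SE 0.24) in GFP High and GFP Low against RFP. Gm7104 had 0.62 (SE 0.71) and 0.17 (SE 0.35), and Gm5039 -1.65 (SE 1.35) and 0.65 (SE 0.42). None of the 5 was called. Out to 5 Mb on either side, 39 other genes had a mean of at least 10 CPM. For GFP High against RFP their log2 fold changes lay between -0.59 and 0.62, and for GFP Low against RFP between -0.32 and 0.17. Their median was -0.02 in both, and 0 were called. Over all genes tested the shares called were 0.0135% and 0.0197%, so nothing is read from the lack of calls among the genes near Gm2042. None of them differed 2-fold or more in either comparison. The share of all genes that differed as much was not counted, so nothing is read from this either.

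**Figure D5:**
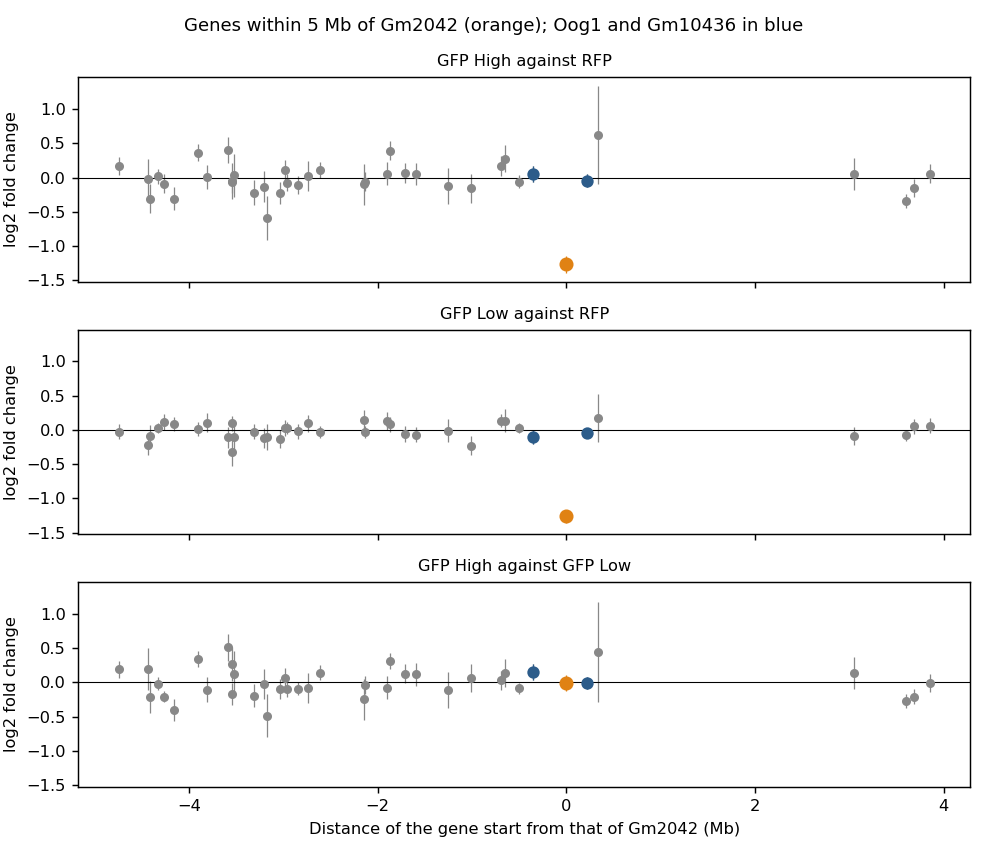
Each point is a gene with a mean of at least 10 CPM within 5 Mb of Gm2042; the x axis is the distance between gene starts in Mb, the y axis the fitted log2 fold change, and bars are standard errors. In the upper panels Gm2042 (orange) lies at -1.27 and -1.26 and the other genes between -0.59 and 0.62.

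Across the 9 libraries, the genes with the pattern most like that of Gm2042, by Pearson r on log2 CPM among 6061 other genes with a mean of 20 CPM or more, were Strbp (0.93), Carnmt1 (0.83), Azin1 (0.83), Ubqln1 (0.83) and Vdac1 (0.81). Strbp, which encodes an RNA-binding protein of germ cells, held 205 ± 10.2 CPM in RFP, 161 ± 7.18 in GFP High and 155 ± 10.98 in GFP Low. Its RFP libraries exceeded the GFP libraries by 0.38 on the log2 scale, where Gm2042 exceeded them by 1.27. Ubqln1, which encodes a ubiquitin-binding shuttle factor, held 392 ± 6.33, 311 ± 40.5 and 283 ± 25.0 CPM in the same order. The most opposite patterns were those of the pseudogene Rpl17-ps3 (-0.97), Myh2 (-0.91), the pseudogene Nudc-ps1 (-0.90), Mrps18a (-0.88) and Fam53a (-0.85). Rpl17-ps3 held 46.7 ± 2.11 CPM in RFP, 65.4 ± 1.41 in GFP High and 65.0 ± 2.38 in GFP Low. The libraries fall into 3 groups and share their scaling, so these values rank the genes and test nothing. Among the members, Oog2 had an r of 0.78 to Gm2042, and Oog1 0.08.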

How the data were processed

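RNA-seq counts of 9 mouse oocyte libraries in 3 groups were analysed. Per the submitters' processing notes, fastp, HISAT2 2.0.5, featureCounts 1.5.0-p3 and DESeq2 1.20.0 were used with build mm10; strandedness, read length and the handling of reads with several matches are not given in the sources used here. For every pair of groups the authors deposited a table of raw read counts, FPKM values and a normalised signal per library, with the authors' log2 fold changes and p-values per gene. The tables were joined by gene identifier into 30153 genes; for 178 genes missing from a table the count was set to 0. The deposited counts were the input to all tests. FPKM served only to compare genes, and the deposited signal was not used in any value printed.

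Each pair of groups was tested on its 6 libraries with edgeR 4.0.16 (filterByExpr, TMM, glmQLFit and glmQLFTest), with Benjamini-Hochberg adjustment over all genes tested and a threshold of 0.05. Standard errors were derived from the F statistic. On simulated data of the same depth the script was checked for recovery of doubled and halved genes. Plotted CPM values use TMM factors over all 9 libraries. Transcripts of the members in GENCODE M21 (build GRCm38) were aligned pairwise with Biopython 1.88. The BLAST+ search covered only the members and the other PRAME genes on the list, with transcripts of at least 1000 bases. Genes at least 95% identical to a member over at least 80% of the shorter transcript were listed. A close copy outside these genes could not be found by this search. Gene coordinates are those of the deposited tables, which match this annotation for all 9 genes.

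The members and lists were chosen with earlier results of these data known. The text names all 9 members and their near-identical copies. Of the other PRAME genes it names those past the threshold and the 6 of highest mean FPKM. Of the genes within 500 kb of Gm2042 it names those with a mean of at least 1 CPM. By pattern it names the 5 genes with the highest and the 5 with the lowest Pearson r to Gm2042. Further genes under 1 CPM, Gm4350 and the genes out to 5 Mb were added after the data were seen. Intervals of counts and shares cover counting error only. Alternatives were DESeq2, limma-voom, other scalings and filters, all 9 libraries in 1 fit, bias-adjusted deviances, a replicate block, leaving out each library, and summing near-identical genes.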

Additional observations from a re-analysis of the deposited data

How the results depend on the processing

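Of 516 recomputed values, 464 kept their direction and their side of the threshold, or, for counts of calls, stayed within 1.5 times. Under the alternatives run, Gm2042 kept a log2 fold change between -1.35 and -1.19 in GFP High against RFP and between -1.31 and -1.18 in GFP Low against RFP, apart from the summed settings given with the results, and it stayed called in GFP Low against RFP in each of them. In GFP High against RFP the call of Gm2042 was lost without GFP High replicate 1 (edgeR adjusted p = 0.133), GFP High replicate 3 (0.128), RFP replicate 2 (0.0575) or RFP replicate 3 (0.0571), so leaving out 1 library gave 0 to 1 members called. The number of genes called there was 2, and 0 to 2 with a library left out, 9 with DESeq2, 1 with limma-voom, 16 with no filter and 4 with the replicate block. In GFP Low against RFP it was 3, and 10 with DESeq2, 1 with limma-voom and 34 with no filter. In GFP High against GFP Low it was 0, and 3 with DESeq2, 16 with no filter and 0 to 1 with a library left out. Replicate numbers were not treated as pairs, since nothing states that they mark a shared animal or day. The deviations of same-numbered libraries had correlations of -0.149 to 0.147. With 3 libraries in each group these cannot show whether the libraries were paired. The replicate block left Gm2042 at -1.27 and -1.26 against RFP. Values near 0 changed sign. With a library left out, the ranges in GFP High against RFP were -0.0192 to 0.131 for Oog1, -0.0125 to 0.197 for Oog3, -0.114 to 0.0120 for Gm10436 and -0.0300 to 0.0900 for Gm13023. In GFP Low against RFP they were -0.127 to 0.102 for Oog4, -0.149 to 0.0186 for C87977, -0.0814 to 0.0371 for Gm13023 and -0.632 to 0.00829 for Pramef17. Between the GFP groups they were -0.0894 to 0.0509 for Gm2042 and -0.0685 to 0.0542 for Gm10436. Oog4 in GFP Low against RFP was -0.00617 without TMM factors and -0.00541 with no filter. Between the GFP groups, Gm2042 was 0.00211 with DESeq2 and 0.00203 with its size factors, and Gm10436 0.00252 and 0.00251. The 3 summed genes gave 0.0233 between the GFP groups and the 5 summed genes 0.0785, and in GFP High against RFP the 3 summed genes gave -0.275 in place of the Oog1 value. The cause of these changes was not tested. Depth limits Pramef17, where 3 counts in a library were taken as the limit of detection.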
